A study of Mus musculus with 8 samples.

Results

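The CXC chemokines described here are Cxcl1, Cxcl2, Cxcl3, Cxcl5, Cxcl12, Cxcl13, Cxcl14, Cxcl15, Cxcl16 and Cxcl17, that is, the CXC ligands other than the interferon-induced and platelet ligands. They are 10 of the 24346 genes listed by symbol, and all 10 were above 0 in at least 1 library and were tested. The genes were taken by symbol, and the family was selected on measured values, the differences between the 3D and the 2D libraries, which were already known, so the 3D values against the 2D values of these 10 genes are given as a description, without p-values. Total RNA of primary adipose-derived stem cells (ADSCs) from the gonadal fat of wild-type (WT) male BALB/c mice, 12 weeks old, was sequenced, with no sort of the cells described and with 1 library per mouse and culture. Of the 8 libraries, 4 came from 2D-cultured ADSCs (mice 2, 3, 4 and 5) and 4 from 3D-cultured ADSCs embedded in Matrigel, a gel of basement membrane proteins (mice 1, 4, 5 and 7), so both culture types are at hand for mice 4 and 5. The labels name no drug or genetic change in either culture. The 3D cultures differed from the 2D cultures in matrix, and the study tried several media for them, with serum or with Wnt3a- and R-Spondin1-conditioned medium. Which medium the sequenced cultures had is not given in the sources used here, so the contributions of the gel, the medium and the culture form to a difference cannot be told apart.

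Chemokines are small secreted proteins that guide migrating cells along a concentration gradient through G protein-coupled receptors. CXC ligands with the ELR motif (Cxcl1, Cxcl2, Cxcl3, Cxcl5 and Cxcl15) attract neutrophils, mainly through Cxcr2, and are induced by Tnf, Il1 and Il17 signals that act in large part on NF-kappaB. Cxcl12 is the homeostatic ligand of Cxcr4 that stromal cells of marrow, fat and other tissues make to retain stem and immune cells. Cxcl14 is made by epithelia and fibroblasts, Cxcl16 is made as a membrane protein and shed as the ligand of Cxcr6, Cxcl13 guides B cells through Cxcr5, and Cxcl17 is a ligand of mucosal surfaces.

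The genes for the ELR ligands lie in a cluster on chromosome 5 that also holds Ppbp and Pf4. On the mm10 build, which is the build that the submitters name, Cxcl5 lies at chr5:90759360-90761624, Cxcl3 at chr5:90786103-90789600, Cxcl15 at chr5:90794534-90803067, Cxcl1 at chr5:90891241-90893115 and Cxcl2 at chr5:90903871-90905938, all on the plus strand. The 250 bases before the RefSeq start of Cxcl1 (chr5:90890995-90891244), Cxcl2 (chr5:90903649-90903898) and Cxcl3 (chr5:90785851-90786100) are printed because these clustered genes hold a palindromic kappaB match there. Those of Cxcl12 (chr6:117168285-117168534), the leading member in 2D, are printed beside them. The windows were picked by the match, so no link between the match and a level is read from them. Cxcl3 holds the match and stayed low in both cultures. The sequences are from RefSeq (GRCm38.p6, the assembly behind mm10), plus strand, 5′ to 3′, with the kappaB match in capitals.
Cxcl1: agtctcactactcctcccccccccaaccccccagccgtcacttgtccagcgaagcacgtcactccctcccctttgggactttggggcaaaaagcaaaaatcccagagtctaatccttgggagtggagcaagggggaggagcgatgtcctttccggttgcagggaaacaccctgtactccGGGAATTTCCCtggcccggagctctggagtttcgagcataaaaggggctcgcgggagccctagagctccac
Cxcl2: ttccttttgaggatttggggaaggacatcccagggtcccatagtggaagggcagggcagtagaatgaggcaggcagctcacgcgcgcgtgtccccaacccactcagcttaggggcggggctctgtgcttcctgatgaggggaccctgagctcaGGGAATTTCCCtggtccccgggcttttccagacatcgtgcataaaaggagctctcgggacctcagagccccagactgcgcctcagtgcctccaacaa
Cxcl3: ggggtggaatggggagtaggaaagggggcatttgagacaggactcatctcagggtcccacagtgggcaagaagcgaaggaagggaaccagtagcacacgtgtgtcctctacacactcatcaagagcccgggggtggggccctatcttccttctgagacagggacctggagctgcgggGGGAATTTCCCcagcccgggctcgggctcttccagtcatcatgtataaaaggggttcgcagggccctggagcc
Cxcl12: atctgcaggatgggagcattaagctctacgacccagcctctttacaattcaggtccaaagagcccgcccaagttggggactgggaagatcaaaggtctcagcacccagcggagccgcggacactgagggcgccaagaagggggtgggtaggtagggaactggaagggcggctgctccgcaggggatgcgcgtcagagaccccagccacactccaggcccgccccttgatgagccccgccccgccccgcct

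Capitals mark GGGAATTTCCC, which holds 2 overlapping matches to the kappaB motif. It ended 61 bases before the start of Cxcl1, 87 before that of Cxcl2 and 63 before that of Cxcl3. The kappaB motif was searched on both strands and was found in 1281 of the 32851 RefSeq promoter windows of this length (3.90%). Promoter windows were matched for 7 of the 10 genes (not for Cxcl5, Cxcl16 and Cxcl17), and the windows of Cxcl12, Cxcl13, Cxcl14 and Cxcl15 held no kappaB match. TATAAA, searched on the strand of the gene, was found in the windows of Cxcl3, Cxcl13 and Cxcl15 and in 7.59% of all windows, and TGANTCA, the AP-1 motif, in none of the 7 and in 6.75% of all. A match is a description of letters and does not show that a factor binds.

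The estimated depth was 17.26 M to 18.26 M fragments in the 2D libraries and 15.26 M to 16.38 M in the 3D libraries, and between 15378 and 16134 genes were above 0 per library. The levels below are normalized FPKM, that is, the deposited fragments per kilobase of transcript scaled to depth after quantile normalization over the 18862 genes tested, and a log2 difference is 3D minus 2D on log2(normalized FPKM + 1) with its standard error from limma. Of all genes tested, 41.5% were called at an adjusted p under 0.05 (21.2% of all genes tested higher and 20.3% lower in 3D), and 42.5% had 2D and 3D libraries that did not overlap. A fit that blocks on the mouse, and keeps 1 residual degree of freedom, called 0%. The labels name the cells mesenchymal stem cells in both cultures, and the stromal markers were clear in 2D, where Col1a2 stood at 756 to 2424 deposited FPKM, but Pdgfrb and Dcn were at 0 and Col1a1 at or under 0.123 deposited FPKM in all 3D libraries. Of the 10 stromal markers, 8 were lower and 1 (Ly6a) higher in 3D, whereas 10 of the 11 epithelial markers were higher, such as Epcam with 212 to 416 deposited FPKM in 3D against at most 0.031 in 2D. The 2D libraries of mice 3 and 4 stood apart by mesothelial markers, with Msln at 256 and 785 deposited FPKM against 0.241 and 0.182 in mice 2 and 5. Values without these libraries are therefore given where a result of a member rests on them.

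**Figure D1:**
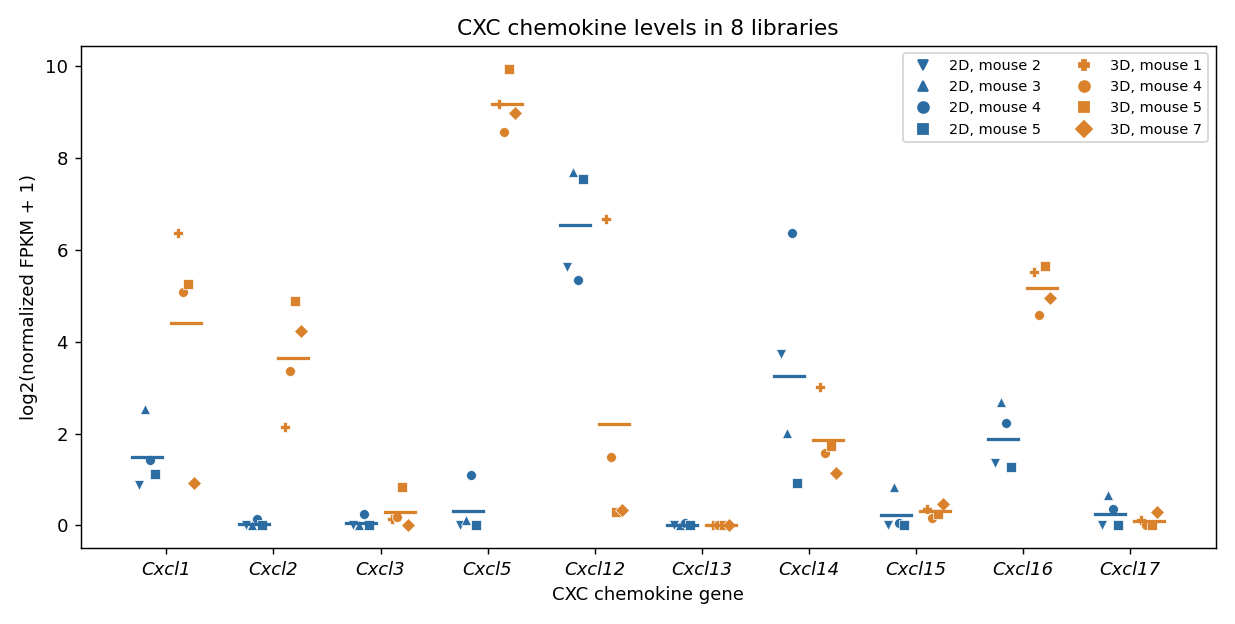
Level of each of the 10 CXC chemokines as log2(normalized FPKM + 1), with 1 point per library (blue 2D, orange 3D, shape by mouse) and a bar at the mean of each culture (n = 4). Cxcl5, Cxcl2 and Cxcl16 lie higher in every 3D library than in any 2D library, Cxcl1 does so apart from the 3D library of mouse 7, and Cxcl12 is lower in 3D apart from the library of mouse 1.

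Among the ligands of Cxcr2, Cxcl5 was the leading CXC transcript of 3D-cultured ADSCs and was close to absent in 2D, Cxcl2 appeared only in 3D above the 3-fragment floor, Cxcl1 was high in 3 of 4 3D libraries, and Cxcl3 and Cxcl15 stayed low in both. Cxcl5 stood at 0, 0.0850, 1.15 and 0 normalized FPKM for mice 2, 3, 4 and 5 in 2D and at 579.8, 380.2, 988 and 505 for mice 1, 4, 5 and 7 in 3D. Its 3D mean was 613 ± 263 normalized FPKM (SD, n = 4), and every 3D library lay far above every 2D library. The log2 difference of Cxcl5 was 8.87 ± 0.35, or 8.66 to 9.11 as each library was left out in turn. It was 9.14 without the 2D libraries of mice 3 and 4. In 2D only the library of mouse 4 held Cxcl5 above the level of 3 fragments, which is 0.108 to 0.129 FPKM for this gene, so the fitted value depends on the pseudocount and no fold is given. In bulk RNA, more cells that express a gene and more RNA per cell cannot be told apart.

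Cxcl2, which macrophages and epithelia release early after a stimulus, was at 0 normalized FPKM for mice 2, 3 and 5 in 2D, at 0.108 for mouse 4 in 2D, and at 3.42, 9.30, 28.6 and 17.7 for mice 1, 4, 5 and 7 in 3D. All 4 2D libraries were under the level of 3 fragments and all 4 3D libraries above it, with the highest 3D library being that of mouse 5 and the lowest that of mouse 1. The log2 difference of Cxcl2 was 3.62 ± 0.54, or 3.20 to 4.13 as each library was left out and 3.66 without the 2D libraries of mice 3 and 4.

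Cxcl1, the keratinocyte-derived chemokine of mice, stood at 0.827, 4.81, 1.69 and 1.16 normalized FPKM for mice 2, 3, 4 and 5 in 2D and at 81.3, 33.1, 37.1 and 0.905 for mice 1, 4, 5 and 7 in 3D. The 3D library of mouse 7 lay within the 2D range and the other 3 lay above it, so the cultures overlapped. Its log2 difference was 2.92 ± 1.11 with all 8 libraries and 4.11 without the 3D library of mouse 7. Without the 2D libraries of mice 3 and 4 it was 3.38. The order of the 3D libraries differed between the neighbours Cxcl1 and Cxcl2, since mouse 1 had the highest Cxcl1 and the lowest Cxcl2.

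Cxcl3, a close relative of Cxcl2, was at 0, 0, 0.184 and 0 normalized FPKM in 2D and at 0.107, 0.138, 0.773 and 0 in 3D, in the mouse order above. Its log2 difference was 0.23 ± 0.17. Its kappaB match has the same 11 letters as those of Cxcl1 and Cxcl2. Transcripts of Cxcl2 and Cxcl3 share sequence: 126 of the 2159 windows of 50 nt in Cxcl2 (5.84%) recur in Cxcl3, so a few fragments could be counted for the wrong gene. Cxcl15, a ligand known from lung epithelium, was at 0, 0.773, 0.0432 and 0 normalized FPKM in 2D and at 0.287, 0.114, 0.192 and 0.381 in 3D. Cxcl15 had a log2 difference of 0.09 ± 0.19. Without the 2D library of mouse 3, the highest of all 8, it was 0.29, and without the 2D libraries of mice 3 and 4 it was 0.31. These values rest on few fragments, as 3 fragments give 0.0853 to 0.102 FPKM for Cxcl15.

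Cxcl12, the Cxcr4 ligand of stromal cells (chr6:117168535-117181367), was the leading member in 3 of the 4 2D libraries and was lower in 3 of the 4 3D libraries. It stood at 48.4, 207, 39.6 and 186 normalized FPKM for mice 2, 3, 4 and 5 in 2D and at 102, 1.82, 0.218 and 0.259 for mice 1, 4, 5 and 7 in 3D. The 3D library of mouse 1 lay inside the 2D range, above the 2D libraries of mice 2 and 4, and the other 3 lay below all 2D libraries. The log2 difference of Cxcl12 was -4.35 ± 1.45, with the largest standard error of the 10 members. Leaving out mouse 1 in 3D gave -5.91, and the difference was between -4.74 and -3.75 as each other library was left out, and -4.35 without the 2D libraries of mice 3 and 4. The 3D library of mouse 1, with Cxcl12 at 82.5 deposited FPKM, held Col1a1 at 0.0145 and Dcn at 0 deposited FPKM. Its Pdgfra, at 0.133 deposited FPKM against 0.0103 to 0.0192, and its Mmp2, at 0.323 against 0 to 0.0215, were the highest of the 3D libraries and far below the 2D libraries. It also differed from the other 3D libraries in Ly6a, at 50.3 deposited FPKM against 1627 to 2607. Its mesothelial markers were mixed. Wt1 was at 1.40 deposited FPKM in it and at or under 0.0633 in the other 3D libraries. Bnc1, at 1.42 deposited FPKM against 0.0136 to 0.261, and Lrrn4 were also the highest of the 3D libraries. Msln was the lowest of them, at 0.756 deposited FPKM against 6.14 to 30.2. Upk3b was at 0 in it and above 0 in the other 3D libraries, and Upk1b was at 0. The part of other cell types in the Cxcl12 level of the 3D library of mouse 1 was not tested.

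Cxcl14 (chr13:56288643-56296551, minus strand), a ligand of epithelia and fibroblasts, varied widely between the 2D libraries. It was at 12.3, 3.01, 81.8 and 0.888 normalized FPKM for mice 2, 3, 4 and 5 in 2D and at 7.05, 2.00, 2.31 and 1.19 for mice 1, 4, 5 and 7 in 3D. The cultures overlapped, and the 2D library of mouse 4 was more than all others together. Cxcl14 had a log2 difference of -1.39 ± 1.11. Without the 2D libraries of mice 3 and 4 it was -0.45, and as each library was left out it lay between -2.14 and -0.35. The 2D library of mouse 4 also had the highest summed mesothelial markers of the 8 libraries, 2246 deposited FPKM. Its stromal markers were mixed. Among the 2D libraries it had the highest Pdgfra (41.9), Dcn (117) and Ly6a (189) and the lowest Col1a1 (295), Col1a2 (756) and Cd44 (92.7), in deposited FPKM. Col3a1, Pdgfrb, Thy1 and Eng lay within the range of the other 2D libraries. Its epithelial markers were mixed as well. Krt7 (74.7), Krt8 (296), Krt18 (287) and Krt19 (125) were the highest of the 2D libraries, in deposited FPKM. Cdh1 (0.725) and Cldn3 (0.209) were also the highest in 2D, at low levels, and Epcam, Cldn4, Esrp1 and Grhl2 were at 0 in it. The part of mesothelial, stromal or epithelial cells in the Cxcl14 level was not tested.

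Cxcl16 (chr11:70453983-70459984, minus strand), the membrane-bound ligand of Cxcr6, was present in both cultures and was higher in 3D. It stood at 1.58, 5.45, 3.68 and 1.43 normalized FPKM for mice 2, 3, 4 and 5 in 2D and at 44.8, 23.0, 49.4 and 29.8 for mice 1, 4, 5 and 7 in 3D. The mean was 3.04 ± 1.91 in 2D and 36.8 ± 12.4 normalized FPKM in 3D (SD, n = 4), a ratio of means of 12.1, and the libraries did not overlap. Cxcl16 had a log2 difference of 3.29 ± 0.38, or 3.03 to 3.53 as each library was left out and 3.80 without the 2D libraries of mice 3 and 4. Within 2D the libraries of mice 3 and 4 had the higher Cxcl16. Zmynd15 overlaps the start of Cxcl16 on the opposite strand and was at 0.0441 to 0.236 deposited FPKM in 2D and 3.21 to 7.35 in 3D. Whether the counting used strand is not stated, so fragments in the overlap cannot be assigned with certainty.

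The other 2 members were near or under the level of 3 fragments in every library. Cxcl13 (chr5:95956951-95961068), the B cell ligand, was at 0.0442 normalized FPKM for mouse 4 in 2D and at 0 in the other 7 libraries, while 3 fragments give 0.173 to 0.207 FPKM. Cxcl17 (chr7:25400053-25412886, minus strand) was at 0, 0.594, 0.285 and 0 normalized FPKM in 2D and at 0.0808, 0, 0 and 0.233 in 3D, and 3 fragments give 0.293 to 0.351 FPKM. Their log2 differences were -0.02 ± 0.02 for Cxcl13 and -0.15 ± 0.16 for Cxcl17, and expression was not detectable with certainty at this depth. The sign for Cxcl17 turned to 0.10 without the 2D libraries of mice 3 and 4. Cxcl17 lies within the antisense gene 4732471J01Rik, which was at 0.0260 to 0.368 deposited FPKM in 2D and 0.712 to 1.23 in 3D.

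In all, 3 of the 10 members were called higher and 1 lower in 3D, beside 21.2% and 20.3% of all genes tested, and 3 of 10 had libraries that did not overlap, beside 42.5%. With the mouse as a fixed block 0 of 10 were called, and the log2 differences were 8.71 for Cxcl5, 4.05 for Cxcl2, 3.37 for Cxcl16 and -5.55 for Cxcl12. The median log2 difference over the 10 members was 0.16, beside 0.00 over all genes tested. Nothing is read from these counts, since the choice of the family used the same comparison.

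The make-up of the family turned over between the cultures. FPKM values are per length, so the deposited FPKM of the members of a library can be added and compared. In 2D the sum over the 10 members was 71.1, 233, 142 and 241 deposited FPKM for mice 2, 3, 4 and 5, and Cxcl12 with Cxcl14 made up 95.0% to 99.2% of it. Cxcl12 alone was 80.5%, 94.1%, 30.8% and 99.0% of the 2D sums, and Cxcl14 led in mouse 4 with 64.3%. In 3D the sum was 701, 378, 859 and 427 deposited FPKM for mice 1, 4, 5 and 7, each above every 2D sum. Cxcl5 was 71.1%, 82.6%, 87.7% and 88.9% of the 3D sums, and Cxcl1, Cxcl2, Cxcl3 and Cxcl5 together 81.5% to 94.7%, against 0.330% to 2.20% in 2D. Cxcl12 was 11.8% of the sum in the 3D library of mouse 1 and at most 0.556% in the other 3.

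**Figure D2:**
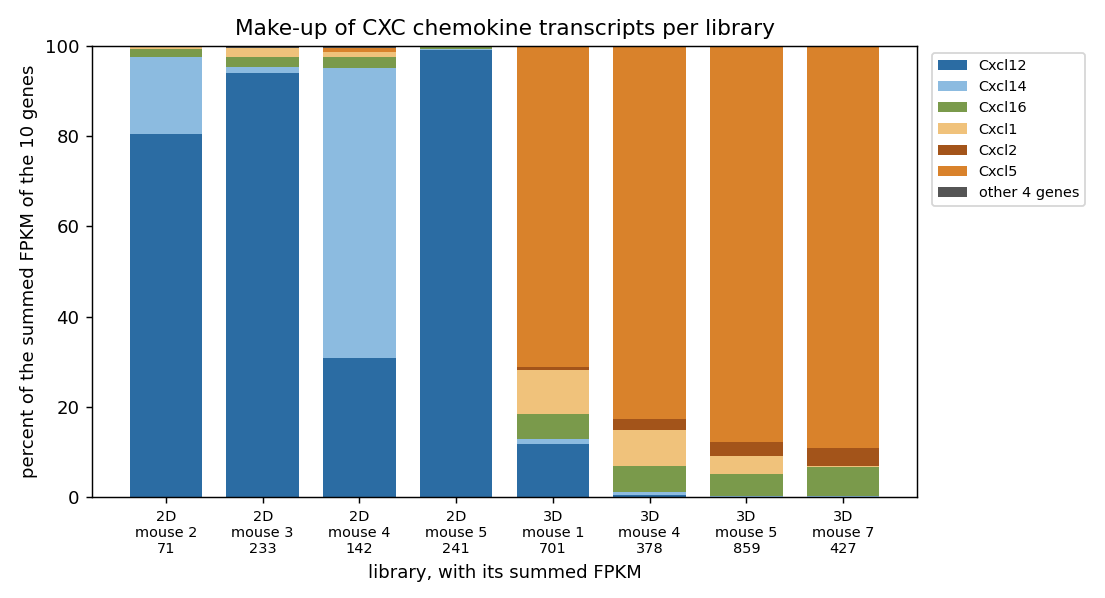
Percent of the summed deposited FPKM of the 10 CXC chemokines that each gene takes, with 1 bar per library and the sum written under it. Cxcl12 and Cxcl14 (blues) take at least 95.0% of each 2D bar, and Cxcl5 (orange) takes 71.1% to 88.9% of each 3D bar.

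By mean normalized FPKM, Cxcl5 ranked 149 of 18862 genes in 3D, and only 89 to 197 genes per 3D library had a higher deposited FPKM. Its lowest 3D library, 380.2, was above the highest 3D library of any other member, 102 for Cxcl12. Behind it in 3D came Cxcl1 at 38.1 ± 33.1, Cxcl16 at 36.8 ± 12.4, Cxcl12 at 26.1 ± 50.6 and Cxcl2 at 14.8 ± 10.96 normalized FPKM (SD, n = 4), and the libraries of these 4 overlapped, so their order is not resolved. Cxcl14 followed at 3.14 ± 2.65 normalized FPKM. In 2D Cxcl12 was first at 120.2 ± 88.5 normalized FPKM (SD, n = 4), rank 625 of 18862, and Cxcl14 second at 24.5 ± 38.5, with libraries that overlapped. Cxcl16 and Cxcl1, at 3.04 ± 1.91 and 2.12 ± 1.83 normalized FPKM in 2D, overlapped too.

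Within the chromosome 5 cluster, the genes at the ends of the span had higher mean levels in 3D than those between them. The span from the start of Cxcl5 to the end of Cxcl2 is 146.6 kb and holds 7 listed genes, of which 5 are members and the others, Ppbp and Pf4, are platelet ligands. Cxcl1 and Cxcl2, which start 131.881 kb and 144.511 kb from the start of Cxcl5, and Cxcl5 itself were the 3 genes of the span with a mean above 10 normalized FPKM in 3D. The genes between them were lower: in 3D, Ppbp was at 0.277 to 0.791, Cxcl3 at 0 to 0.773 and Cxcl15 at 0.114 to 0.381 normalized FPKM. Pf4, at 13.075 kb, was at 11.99 normalized FPKM for mouse 1 in 3D and at 0 to 0.628 in the other 3.

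**Figure D3:**
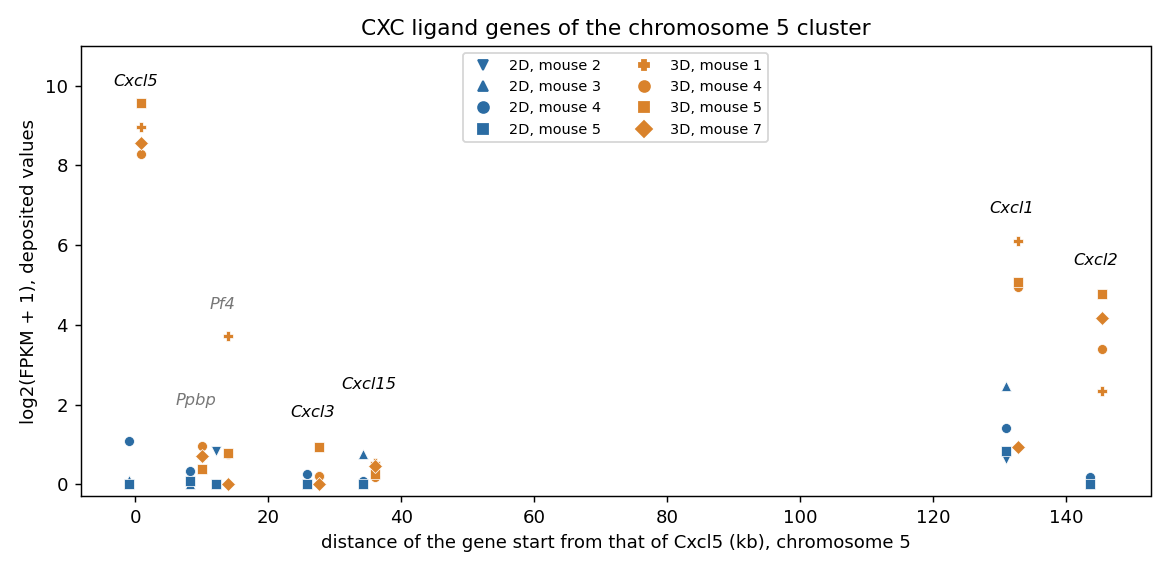
Deposited FPKM as log2(FPKM + 1) of the 7 listed genes of the chromosome 5 cluster against the distance of their start from that of Cxcl5 in kb, with 1 point per library (2D blue, drawn 0.9 kb to the left of the gene start, 3D orange, 0.9 kb to the right). Cxcl5, Cxcl1 and Cxcl2 at the ends of the span are high in 3D, apart from Cxcl1 for mouse 7 at 0.918 deposited FPKM, while Cxcl3 and Cxcl15 between them stay under 1 deposited FPKM in all libraries.

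Mice 4 and 5 gave both cultures, so the difference can be read within a mouse for 6 members. Cxcl5 was higher in 3D by 7.47 in mouse 4 and 9.95 in mouse 5 on log2(normalized FPKM + 1). The same within-mouse log2 difference was 3.22 and 4.89 for Cxcl2, 3.66 and 4.14 for Cxcl1 and 2.36 and 4.38 for Cxcl16. All 4 were thus higher in the 3D culture of both mice. Cxcl12 went the other way in both, with log2 differences of -3.85 and -7.26. Cxcl14 differed in sign between the mice, with a log2 difference of -4.78 in mouse 4 and 0.81 in mouse 5. With 1 pair per mouse, these values have no replicate check.

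**Figure D4:**
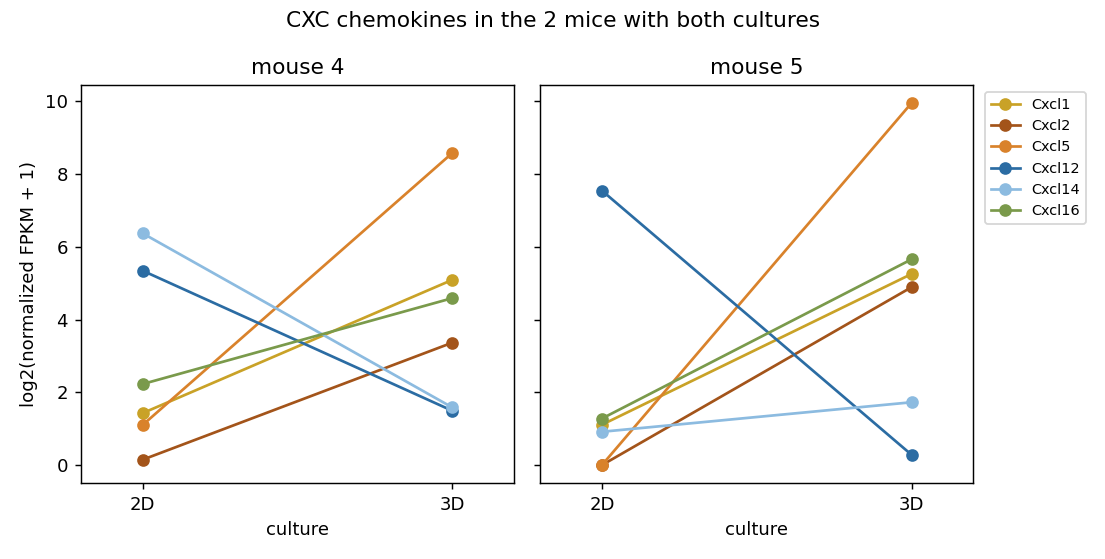
Level as log2(normalized FPKM + 1) of 6 CXC chemokines in the 2D and the 3D library of mouse 4 (left) and of mouse 5 (right), with a line per gene. Cxcl1, Cxcl2, Cxcl5 and Cxcl16 lie higher in 3D in both panels, Cxcl12 lies lower in both, and Cxcl14 has a log2 difference of -4.78 in mouse 4 and 0.81 in mouse 5.

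For each member with a mean of at least 1 normalized FPKM, the 3 most similar patterns over the 8 libraries were taken from 12577 other genes by Pearson's r of log2(normalized FPKM + 1). These values are a description, since all genes share the libraries and the split between the cultures. For Cxcl5 they were Neurl3, Myo6 and Rims2 (r = 0.998 each), and Neurl3 stood at 0.0421 to 0.211 normalized FPKM in 2D and 13.5 to 24.4 in 3D. For Cxcl2 they were Spns3 (r = 0.998), Ppp4r2 (0.996) and Mia2 (0.994), and Spns3 had the same order of the 3D libraries, at 4.96, 10.11, 38.2 and 26.8 normalized FPKM. For Cxcl1 they were Fem1b (r = 0.966), Zfp207 (0.954) and Pfkl (0.953). Pfkl, a glycolytic enzyme, was like Cxcl1 low in the 3D library of mouse 7, at 40.7 normalized FPKM against 79.8 to 173 in the other 3. For Cxcl16 they were A130077B15Rik, Hivep2 (r = 0.995 each) and Mpnd (0.994). For Cxcl12 they were Nr3c1, the glucocorticoid receptor (r = 0.969), Cdkn2c and Dpysl2 (0.965 each), of which Cdkn2c was at 15.2 normalized FPKM for mouse 1 in 3D and at 3.28 to 5.01 in the other 3. For Cxcl14 they were AW209491 (r = 0.946), Gstp2 (0.937) and Cept1 (0.916). Among the members, r was 0.94 for Cxcl2 with Cxcl5, 0.97 for Cxcl5 with Cxcl16 and 0.28 for Cxcl12 with Cxcl14, which were high in different 2D libraries.

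Of 9 receptors, Cxcr3, the receptor of the interferon-induced ligands, and Ackr1, a scavenger, were listed at 0 in every library, and of the 7 tested 1 was called lower (beside 20.3% of all genes tested) and 0 higher (beside 21.2%) by limma, with 2 at an unadjusted p under 0.05, both lower in 3D. Cxcr2, the receptor of the ELR ligands, was at 0.603 to 1.47 normalized FPKM in 2D and 0.409 to 0.971 in 3D, a log2 difference of -0.25 ± 0.16 (limma, adjusted p = 0.244). Cxcr4, the receptor of Cxcl12, was at or under 0.0599 normalized FPKM in 2D and at 0 to 0.460 in 3D (limma, adjusted p = 0.175). Ackr3, which takes up Cxcl12, was at 1.41 to 3.95 normalized FPKM in 2D and 0.689 to 6.25 in 3D (limma, adjusted p = 0.759), highest in the 3D library of mouse 1, which also had the highest 3D Cxcl12. Cxcr6, the receptor of Cxcl16, was at 1.77 to 13.4 normalized FPKM in 2D, highest for mice 5 and 2, and 0.899 to 1.24 in 3D, without overlap, and its log2 difference of -1.37 ± 0.52 did not pass (limma, adjusted p = 0.0711). Every library of Cxcr6 was thus higher in 2D and every library of Cxcl16 higher in 3D. Gpr35, which has been proposed as a receptor of Cxcl17, was lower in 3D, at 0.790 to 2.75 normalized FPKM in 2D and 0 to 0.0550 in 3D (log2 difference -1.44 ± 0.21, limma, adjusted p = 0.0011). Cxcr1, with a log2 difference of -0.03, and Cxcr5, with -0.07, were at or under 0.301 normalized FPKM throughout.

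**Figure D5:**
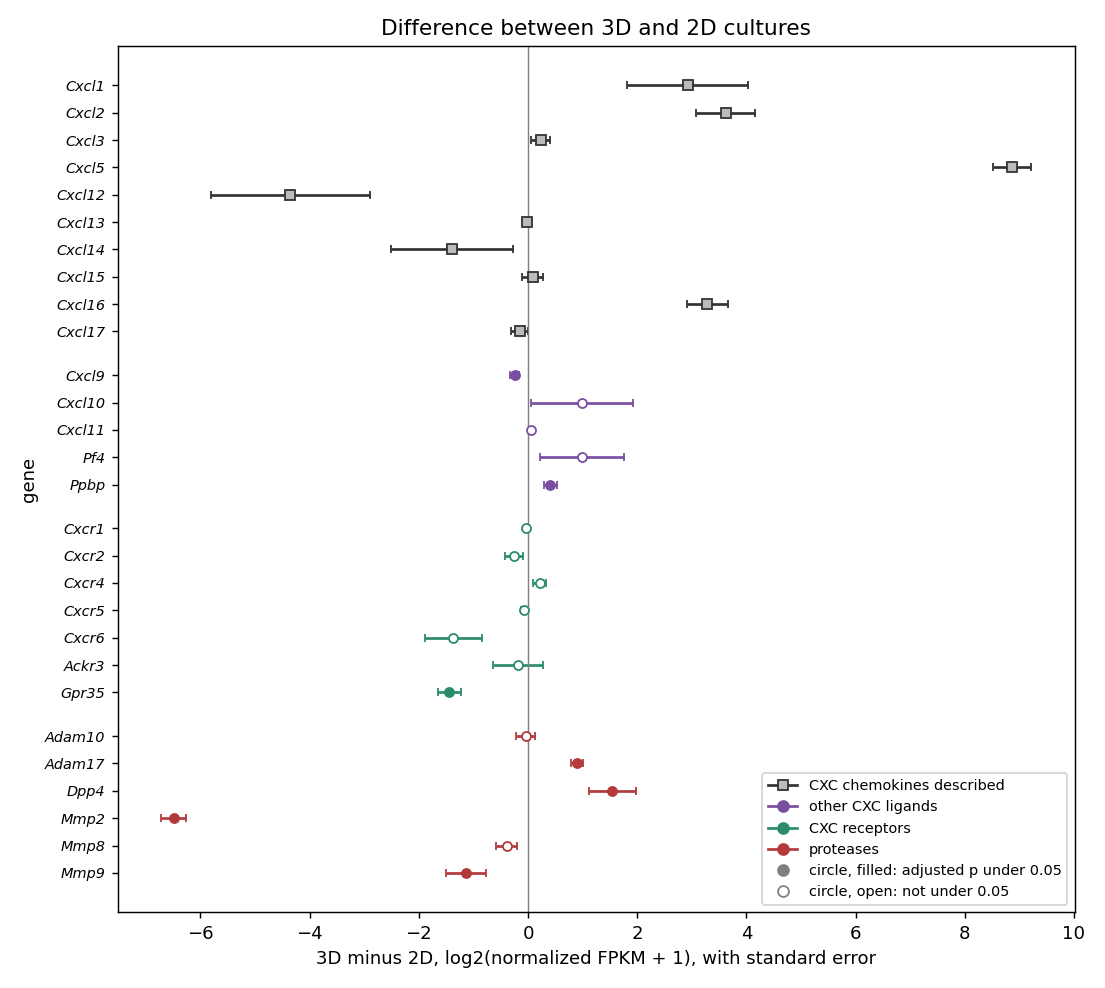
Log2 difference (3D minus 2D, log2(normalized FPKM + 1)) with its standard error for the 10 CXC chemokines, the other CXC ligands, the 7 tested receptors and the proteases (n = 4 libraries per culture). Filled coloured points have an adjusted p under 0.05, the members (grey squares) are drawn without a mark of the test, and Cxcl5 at 8.87 and Mmp2 at -6.49 lie at the ends of the range.

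Of the other CXC ligands, 1 of 5 rose and 1 of 5 fell, both by small amounts and beside 21.2% and 20.3% of all genes tested, so the shares are near the background. Ppbp, a platelet ligand of the chromosome 5 cluster, was at 0 to 0.234 normalized FPKM in 2D and 0.277 to 0.791 in 3D (log2 difference 0.41 ± 0.12, limma, adjusted p = 0.0258). Cxcl9, an interferon-induced ligand, was at 0.0466 to 0.338 normalized FPKM in 2D and no more than 0.0266 in 3D (log2 difference -0.25 ± 0.08, limma, adjusted p = 0.0381). Both values rest on few fragments. Cxcl10, at 0 to 7.38 normalized FPKM in 2D and 0.146 to 10.13 in 3D, had a log2 difference of 0.99 ± 0.93 (limma, adjusted p = 0.431). Pf4 (log2 difference 0.99 ± 0.77, limma, adjusted p = 0.345) and Cxcl11 (0.06 ± 0.04, limma, adjusted p = 0.264) did not pass either.

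Of 6 proteases known to shed or trim CXC ligands, 2 rose and 2 fell, beside 21.2% and 20.3% of all genes tested. Adam17, which can shed Cxcl16, was at 13.3 to 16.8 normalized FPKM in 2D and 24.9 to 30.8 in 3D (log2 difference 0.89 ± 0.11, limma, adjusted p = 0.00041), while Adam10, the other Cxcl16 sheddase, was at 38.4 to 72.6 and 44.7 to 54.0 normalized FPKM (log2 difference -0.05 ± 0.18, limma, adjusted p = 0.852). Dpp4, which trims and inactivates Cxcl12, was at 0.0558 to 0.812 normalized FPKM in 2D and 1.10 to 6.09 in 3D (log2 difference 1.55 ± 0.43, limma, adjusted p = 0.0230). Mmp2, which also cleaves Cxcl12, was at 62.7 to 133 normalized FPKM in 2D and no more than 0.205 in 3D (log2 difference -6.49 ± 0.22, limma, adjusted p = 8.6e-07). Mmp9 fell from 0.00462 to 2.89 normalized FPKM in 2D to 0.0708 or less in 3D, with overlap between the cultures (log2 difference -1.14 ± 0.37, limma, adjusted p = 0.0397). Mmp8, which like Mmp9 can trim Cxcl5, was at or under 0.913 normalized FPKM in 2D and at 0 in 3D (limma, adjusted p = 0.140).

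Of 17 inducers and regulators of the ELR ligands, 4 rose and 3 fell, which is near the 21.2% and 20.3% of all genes tested. Tnf, a main inducer, was at 0 in every 2D library and at 15.7, 13.2, 27 and 15.6 normalized FPKM for mice 1, 4, 5 and 7 in 3D. Its mean deposited FPKM in 3D was 119 times 0.146 FPKM, the highest level that 3 fragments give for this gene in any of the 8 libraries. Its log2 difference was 4.19 ± 0.22 (limma, adjusted p = 7.5e-06). Mouse 5 had the highest 3D library of Tnf, as of Cxcl5 and Cxcl2. The full order of the 3D libraries was the same for Tnf and Cxcl5 but differed for Cxcl2, lowest for mouse 1, and for Cxcl1, lowest for mouse 7. Tlr2, a receptor for bacterial lipoproteins, rose by 1.79 ± 0.22 on the log2 scale (limma, adjusted p = 0.00046), Nfkb1, the p105 precursor of an NF-kappaB subunit, by 1.33 ± 0.16 (limma, adjusted p = 0.0004) and Nfkbia, the inhibitor that NF-kappaB itself induces, by 1.05 ± 0.30 (limma, adjusted p = 0.0255). Tnfaip3, another inhibitor and NF-kappaB target, went the other way, with a log2 difference of -1.01 ± 0.26 (limma, adjusted p = 0.0151), as did Il17ra with -0.72 ± 0.19 (limma, adjusted p = 0.0172) and Myd88, the adaptor of Tlr2 and the Il1 receptor, with -0.54 ± 0.18 (limma, adjusted p = 0.0457). Il1a, at 0.104 to 0.166 normalized FPKM in 2D, was at 4.21 in the 3D library of mouse 1, which had the highest Cxcl1, and at 0.336 to 0.380 in the other 3 (limma, adjusted p = 0.211). Il1b was at or under 0.115 normalized FPKM throughout. The part of Tnf, Il1a or Il1b in the levels of the ligands was not tested. Rela, the other main NF-kappaB subunit of this list, had a log2 difference of -0.14 ± 0.18 (limma, adjusted p = 0.561), and Zfp36, which destabilizes chemokine transcripts, of -0.33 ± 0.26 (limma, adjusted p = 0.349). Of the genes not called, Il17rc (0.88 ± 0.36, limma, adjusted p = 0.0910) and Nfkbiz (0.64 ± 0.24, limma, adjusted p = 0.0692) had an unadjusted p under 0.05.

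Markers of immune and other cells were checked because leukocytes and epithelia make several of the CXC ligands. The counts called here stand beside 41.5% of all genes tested, 21.2% higher and 20.3% lower in 3D. Of 6 macrophage markers 1 was called, Cd68, at 0.562 to 2.86 deposited FPKM in 2D and 6.66 to 32.3 in 3D, and the summed level of the list was 1.32 to 21.7 deposited FPKM in 2D and 7.09 to 38.6 in 3D. Ptprc, the pan-leukocyte marker, was at or under 0.0788 deposited FPKM in all libraries and Adgre1 and Lyz2 at 0 in all 3D libraries. Csf1r, not called, was at 0.408 to 1.41 deposited FPKM in 2D, at 0.409 for mouse 1 in 3D and at 3.68 to 8.13 in the other 3D libraries. The part of macrophages in the levels of the chemokines was not tested. Of 7 neutrophil markers 6 were listed, 4 tested and 0 called by limma, with 0 at an unadjusted p under 0.05, and their sum was 0.0169 to 4.08 deposited FPKM in 2D and 0 to 1.74 in 3D. Of 5 endothelial markers 0 were called, with 2 at an unadjusted p under 0.05, and their sum was 0.676 to 6.46 deposited FPKM in 2D and 0.0617 to 0.204 in 3D. The epithelial markers summed to 32.8 to 783 deposited FPKM in 2D and 2159 to 2586 in 3D. Keratins made up most of the 2D sums, with Krt8 at 296 and Krt18 at 287 deposited FPKM for mouse 4. Epcam, Cdh1, Cldn3, Cldn4, Cldn7, Esrp1 and Grhl2 were at or under 0.725 deposited FPKM in every 2D library. The stromal markers summed to 2036 to 4395 deposited FPKM in 2D and 127 to 2660 in 3D, where Ly6a and Cd44 made up the sum. Of 9 genes of the epididymal duct, a tissue that lies beside gonadal fat, Pax2 and Pax8 were called higher in 3D. The list summed to 0.301 to 0.620 deposited FPKM in 2D and 38.7 to 47.1 in 3D. Most of the 3D sum was Pax2 (6.76 to 10.9) and Pax8 (26.8 to 35.7). Most of the 2D sum was Rnase10, at 0.258 to 0.620 in 2D, 0.787 for mouse 1 in 3D and 0 in the other 3D libraries. The segment genes Adam7, Lcn5 and Lcn9 were at 0 in all libraries, and Lcn8 and Cst8 at or under 0.154. Crisp1 was at 4.21, 0, 0.439 and 0.102 deposited FPKM for mice 1, 4, 5 and 7 in 3D and at most 0.137 in 2D. The mesothelial list, of which 0 of 6 were called with 0 at an unadjusted p under 0.05, summed to 0.359 to 2246 deposited FPKM in 2D and 3.68 to 30.6 in 3D. Between the cultures, 10 of the 11 epithelial markers were called higher in 3D, where Cxcl5, Cxcl2 and Cxcl16 were higher too. The 8 stromal markers called lower in 3D had the direction of Cxcl12 outside the 3D library of mouse 1. This describes only the split between the cultures, at which 41.5% of all genes tested were called. The part of cell composition in the levels of the chemokines was not tested.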

How the data were processed

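Total RNA of 8 ADSC cultures was sequenced after rRNA depletion with a directional kit, paired-end. The authors trimmed the reads, mapped them with TopHat (build mm10 per the submitters' processing notes) and used Cufflinks to compute gene FPKM. These FPKM are what the authors deposited, with no read counts, and the annotation is not given in the sources used here. Genes above 0 in at least 1 library (18862 of 24346 listed) were quantile normalized and converted to log2(FPKM + 1), which understates the change of low genes. Linear models without covariates were fitted over all genes with limma 3.58.1 in R 4.3.3 (empirical Bayes with an intensity trend, Benjamini-Hochberg adjustment, called at an adjusted p under 0.05) and tested on simulated data with 4 libraries per group.

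The members, lists, rules and alternatives were chosen with earlier results of these data known. Every member was named, and of the other lists every called gene and each gene named for its role, with the 3 nearest patterns of each member with a mean of at least 1 normalized FPKM and the genes of the chromosome 5 span. Some genes of the lists have no values in the text. Replicates are cultures of separate mice. Mice 4 and 5 gave both cultures (per the titles), and the deviations of their 2D and 3D libraries from the culture means correlated at -0.05 and -0.11 over 12583 genes.

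Depth, which the sources used here do not give, was inferred from how low FPKM values step in 875 genes with 1 transcript of at least 3000 nt (GENCODE M21, 95.6% of genes matched by symbol) at an assumed fragment length of 200 nt. Of these low values, 72.1% to 84.6% lay within 0.15 of a whole number of steps, so counts were not recovered. Evenly spread values would give 30% at a depth fixed beforehand. The depth was instead picked to bring these same values closest to whole steps, so the shares do not test it. The level of 3 fragments uses the median transcript length and covers counting error only. The fit was repeated on the deposited values, without the trend, with a filter on a mean of 1 FPKM or more, with 0.1 as the pseudocount, with a block or random effect for the mouse, with each library left out, and, chosen after seeing the data, without the 2D libraries of mice 3 and 4.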

Additional observations from a re-analysis of the deposited data

Results flagged for a closer look

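In 11 groups of 4 libraries, each of them 1 member in 1 culture with a highest library of at least 1 normalized FPKM, the library farthest from the others was compared with the range of its group (Dixon's test, 95% level). The comparison was made on normalized FPKM and on log2(FPKM + 1), and chance flags about 1 in 20 groups on each scale. Cxcl5 in the 2D library of mouse 4 stood apart, at 1.15 normalized FPKM and at 1.10 on log2(FPKM + 1), while the other 2D libraries were at or under 0.0850 normalized FPKM. Cxcl12 in the 3D library of mouse 1 stood apart at 102 normalized FPKM, against 0.218 to 1.82 in the other 3D libraries. Cxcl14 in the 2D library of mouse 4 stood apart at 81.8 normalized FPKM, against 0.888 to 12.3 in the other 2D libraries. Only Cxcl5 was flagged on both scales. Cxcl12 and Cxcl14 were flagged on normalized FPKM and not on log2(FPKM + 1). The causes were not tested.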

How the results depend on the processing

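Counts of members are given as a description, since the family was selected on this comparison. With the mouse as a fixed block (replicate block), which leaves 1 residual degree of freedom, limma called 0 genes in each direction for all genes and for every list. At an unadjusted p under 0.05 it then had 5216 of all genes, 5 members, 1 other CXC ligand, 1 receptor, 3 proteases and 7 inducers. With the mouse as a random effect, with a correlation of -0.04, no call of a member changed. The members called higher in 3D numbered 3 with the deposited values, without the intensity trend, with a pseudocount of 0.1 and with the random effect, and 4 with the filter on a mean of at least 1 FPKM and without the 3D library of mouse 7, where Cxcl1 was added, and without the 2D library of mouse 3 or the 2D libraries of mice 3 and 4, where Cxcl15 was added. The member counted lower, Cxcl12, kept its call when the 3D library of mouse 1 was left out and lost it when any other was. The members called lower were 0 without the intensity trend and 0 without the 2D libraries of mice 3 and 4, a setting chosen after seeing the data, which also turned Cxcl17 from -0.15 to 0.10. The receptors called lower were 2 with a pseudocount of 0.1 and 2 without these 2 libraries. With the mean filter, which kept 2 receptors, the 1 called lower was Cxcr6 and not Gpr35, which was left out. Other CXC ligands called higher were 0 with the mean filter and 0 without these libraries, and those called lower were 0 without the trend and 0 with the mean filter, which removed both called genes, Ppbp and Cxcl9, and kept 2 of the 5. Proteases called higher were 1 without these libraries and those called lower 1 with the mean filter, which removed Mmp9 and kept 4 of the 6. Inducers were 7 higher and 1 lower without these libraries.

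As each library was left out in turn, all genes called ranged from 3393 to 4051 higher and 3204 to 3835 lower, members from 3 to 4 higher and 0 to 1 lower, receptors from 0 to 0 higher and 1 to 2 lower, other CXC ligands from 0 to 1 in each direction, proteases from 1 to 2 in each direction, and inducers from 3 to 7 higher and 2 to 3 lower. The causes were not tested. The median over all genes moved by less than 0.1 on the log2 scale under each setting. Depth limits Cxcl3, Cxcl13, Cxcl15 and Cxcl17, whose values rest on few fragments.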
